A study of Mus musculus with 14 samples.

Results

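Transcripts of 10 neuropeptide genes were measured in single nuclei of mouse retina and of brain vascular fragments. The genes were taken from a fixed list of names, *Vip*, *Npy*, *Sst*, *Tac1*, *Penk*, *Cck*, *Gal*, *Crh*, *Pdyn* and *Nts*, and all 10 are present among the 28316 gene symbols of the retina matrix and the 26528 of the brain matrix. Their unique molecular identifiers (UMIs, each marking 1 captured transcript) were summed for every cell type label and library. They are given as CPM, a gene's UMIs divided by the total of the same nuclei and scaled to 1e6, and as the share of nuclei with at least 1 UMI.

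Neuropeptides are cut from larger precursor proteins, stored in dense core vesicles and released by neurons together with a fast transmitter, to act on G protein-coupled receptors over longer times and distances. In the retina they are best known as markers of amacrine cell types, the inhibitory interneurons of the inner retina. In the brain they mark classes of cortical interneurons and the pathways leaving the striatum.

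The study asked what the loss of TGF-beta signaling in endothelial cells (ECs) does to the retina and brain. In *Cdh5CreER;Tgfbr1 CKO/-* mice, called CKO here, Cre is driven by the EC gene *Cdh5* (VEcad) and was activated with 4-hydroxytamoxifen between postnatal days 3 and 5. Any difference in a neuron is therefore in a cell that Cre was not aimed at. The genotype also names a null *Tgfbr1* allele beside the floxed one, and that allele is not limited to ECs. The control libraries are labelled as wild type. The paper calls its controls phenotypically wild type and names *Cdh5CreER;Tgfbr1 CKO/+* as a usual genotype for them elsewhere, so they may carry Cre and 1 floxed allele, and no source used here says whether those mice also received 4-hydroxytamoxifen. The methods give the age as postnatal day 14, whereas the labels call the mice young adults. The retina has 1 control library and 11 CKO libraries, and the number of mice per retina library is not given, so p-values measure the spread between these libraries. PIPseq kits differ, v4 PLUS for the control and for CKO replicates 1 to 7, v5 for CKO replicates 8 to 11. The brain has 1 control and 1 CKO library, each from vascular fragments of 2 pooled brains enriched by centrifugation through Ficoll.

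The retina libraries hold 77676 nuclei in 11 labels, with totals from 90449 UMIs in CKO replicate 4 (104 nuclei) to 55803724 UMIs in CKO replicate 5 (18862 nuclei), and the control has 30989702 UMIs. The brain libraries hold 31324 nuclei in 21 labels, 49798325 UMIs for the control and 31033373 for CKO. In the retina, 10 barcodes occurred in more than 1 library, and in the brain 2 did. The 10 genes together gave 4148 UMIs in the retina and 3794 in the brain, and 3.17% of retinal nuclei and 7.43% of brain nuclei had a UMI of any of them. Intervals below are 95% intervals and cover counting error only. Where a count was 0, the level or share said to be allowed is that of 3 UMIs or nuclei in the same total. The upper end of the exact interval lies higher. Because UMIs come from the 3′ ends of transcripts and are not scaled to length, levels are compared for 1 gene across labels and libraries, not between genes.

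*Tgfbr1*, the targeted receptor gene, is transcribed in many cell types and was measured at 89.0 CPM in the control retina. In the CKO retinas it was between 71.4 and 87.1 CPM, apart from 365 CPM in CKO replicate 4, which rests on 33 UMIs. In brain ECs it was 69.1 CPM (62.5 to 76.2) in the control and 62.9 CPM (57.1 to 69.1) in the CKO library. Counts of 3′ ends can lie outside the deleted part of the gene, so these levels do not check the genotype.

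Cell type labels were compared with marker lists. Of the 11 retinal lists, 10 had their highest summed level in their own label, and the glycinergic amacrine list, which shares *Tfap2b* and *Pax6* with the GABAergic one, was at 1192 CPM in GABA_AC nuclei and 999.7 CPM in Gly_AC nuclei. Its transporter gene *Slc6a9* was at 199 CPM in Gly_AC against 18.8 CPM in GABA_AC.

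In the brain several labels went against their markers. Nuclei labelled Glut_14 had *Gad1* at 199 CPM and *Gad2* at 435 CPM, the enzymes that make GABA, and *Adarb2* at 6756 CPM, but the glutamate transporter gene *Slc17a7* at only 10.4 CPM. Nuclei labelled Glut_1 mixed *Gad2* (131 CPM) with the other glutamate transporter gene *Slc17a6* (92.7 CPM), and Glut_21 had the Purkinje cell gene *Pcp2* at 285 CPM. The label glia held the highest sum of the fibroblast list, 1867 CPM, with *Col1a1* at 1339 CPM.

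The label Glut_20, with 499 nuclei and a median of 815 UMIs, combined markers of unrelated classes, with *Ttr* at 2714 CPM, *Slc17a7* at 504 CPM and *Gad2* at 280 CPM. Its mitochondrial share, 1.53%, was the highest of the 21 labels, and its share of the nuclear transcript *Malat1*, 0.965%, the lowest. It is treated here by its name alone and kept apart from the other neuron labels.

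*Npy*, which encodes neuropeptide Y, an inhibitory peptide, gave 1714 of the 4148 retinal UMIs. Its level was highest in GABA_AC at 30.3 CPM (28.6 to 32.0), followed by horizontal cells at 16.0 CPM (13.2 to 19.3), Müller glia at 5.44 CPM (4.30 to 6.79) and ganglion cells at 4.98 CPM (4.03 to 6.08). The intervals of the first 3 were apart, and those of Müller glia and ganglion cells overlapped. In GABA_AC, 759 of 6894 nuclei (11.0%) had an *Npy* UMI, against 0.0707% of rods, which should lack the gene, at median depths of 4708 and 1064 UMIs per nucleus. The share in horizontal cells was higher than in GABA_AC, 14.4% at a median depth of 8629 UMIs. After each nucleus was thinned to 1000 UMIs, with 779 GABA_AC nuclei and 19268 rods too shallow and left out, the shares were 2.45% and 0.0276%, and 0.620% in horizontal cells, so that order turned.

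Some *Npy* levels outside GABA_AC rest on few libraries. CKO replicate 5 gave 44 of the 78 *Npy* UMIs in Müller glia, 56.4%, spread over 37 nuclei, and without CKO replicates 4 and 5 the level was 3.03 CPM. In ganglion cells 42 of 95 UMIs came from CKO replicate 8, and 28 of those from 1 nucleus.

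*Vip*, the gene of vasoactive intestinal polypeptide and a classical amacrine marker, was the member most concentrated in a single retinal label. GABA_AC held 481 of its 564 UMIs (85.3%) at 11.4 CPM (10.4 to 12.5), and no other label was above 2.25 CPM. Those UMIs sat in 151 nuclei, 2.19% of the label against 0.0268% of rods, or 0.654% against 0.0092% after thinning. Of them, 91 nuclei held 2 or more UMIs, which made up 87.5% of the *Vip* UMIs of the label, and the highest nucleus had 16. *Npy* had 62.7% and *Tac1* 65.6% of their GABA_AC UMIs in such nuclei.

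*Tac1*, the precursor of substance P and neurokinin A, was found in both amacrine and ganglion cells. It was at 16.1 CPM (14.9 to 17.3) in GABA_AC and 11.0 CPM (9.56 to 12.6) in ganglion cells, then at 2.95 CPM (1.83 to 4.51) in horizontal cells, with no overlap between these intervals. A *Tac1* UMI was present in 5.60% of GABA_AC nuclei and 8.40% of ganglion cells, at a median depth of 8540 UMIs for the latter, and in 0.0268% of rods. Thinned to 1000 UMIs, the shares were 1.70%, 0.874% and 0.0138%, so the order of shares followed the order of CPM only after thinning.

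The opioid precursors *Penk*, which encodes the enkephalins, and *Pdyn*, which encodes the dynorphins, differed in where they were found. *Penk* was highest in ganglion cells at 4.19 CPM (3.32 to 5.22), where 80 of its 171 UMIs lay. Astrocytes at 2.93 CPM (0.604 to 8.56) and immune cells at 1.875 CPM (0.609 to 4.376) followed, from 3 and 5 UMIs. Their intervals overlapped that of ganglion cells. Gly_AC was at 1.13 CPM (0.789 to 1.56). The ganglion cell level was higher when each nucleus weighed the same, 7.40 CPM after thinning to 1000 UMIs and 10.5 CPM as a mean over nuclei. By that mean astrocytes, at 11.65 CPM, came before ganglion cells, whereas after thinning they had 0 CPM. A *Penk* UMI was present in 3.02% of ganglion cells and 0.0195% of rods, or 0.673% and 0.0138% after thinning. *Pdyn* was highest in Müller glia at 6.98 CPM (5.68 to 8.49), then in Gly_AC at 3.54 CPM (2.92 to 4.25), horizontal cells at 2.81 CPM (1.72 to 4.34) and GABA_AC at 2.13 CPM (1.72 to 2.62). Only the first of these neighbours in the order stood apart by its interval.

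*Pdyn* was present in 2.96% of horizontal cells, at a median depth of 8629 UMIs, in 2.47% of Müller glia, at 3354 UMIs, and in 1.44% of Gly_AC, against 0.0244% of rods. After thinning these were 0.207%, 0.573%, 0.429% and 0.0092%, so horizontal cells came first only before thinning. The thinned share of horizontal cells is of 484 nuclei, too few to settle their place after thinning. Among the 76 Müller glia with *Pdyn*, 94.7% also had the glial gene *Slc1a3*, as did 89.5% of the remainder.

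The other 5 genes were sparse in the retina. *Gal*, for galanin, reached 1.31 CPM (0.848 to 1.93) in ganglion cells and 0.517 CPM (0.332 to 0.770) in cone bipolar cells, where 11 of 24 UMIs came from the control and the level without it was 0.316 CPM. *Cck*, for cholecystokinin, was at 1.01 CPM (0.745 to 1.35) in cone bipolar cells and 0.876 CPM (0.582 to 1.27) in Gly_AC, with 47 and 28 UMIs. *Crh*, for corticotropin-releasing hormone, and *Sst*, for somatostatin, had 20 and 21 UMIs in ganglion cells. *Crh* also had 20 UMIs in GABA_AC (0.474 CPM), 8 of them in the control (1.44 CPM). In ganglion cells CKO replicate 1 gave 10 of the *Crh* UMIs and 8 of the *Sst* UMIs, and CKO replicate 9 gave 7 of the latter.

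*Nts*, for neurotensin, gave 9 UMIs in all retinal nuclei. It was at 0 in the batch of the control and CKO replicates 1 to 3. There 0 UMIs allow up to 0.0344 CPM, but only if that batch used the symbol, since symbols differ between batches.

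**Figure D1:**
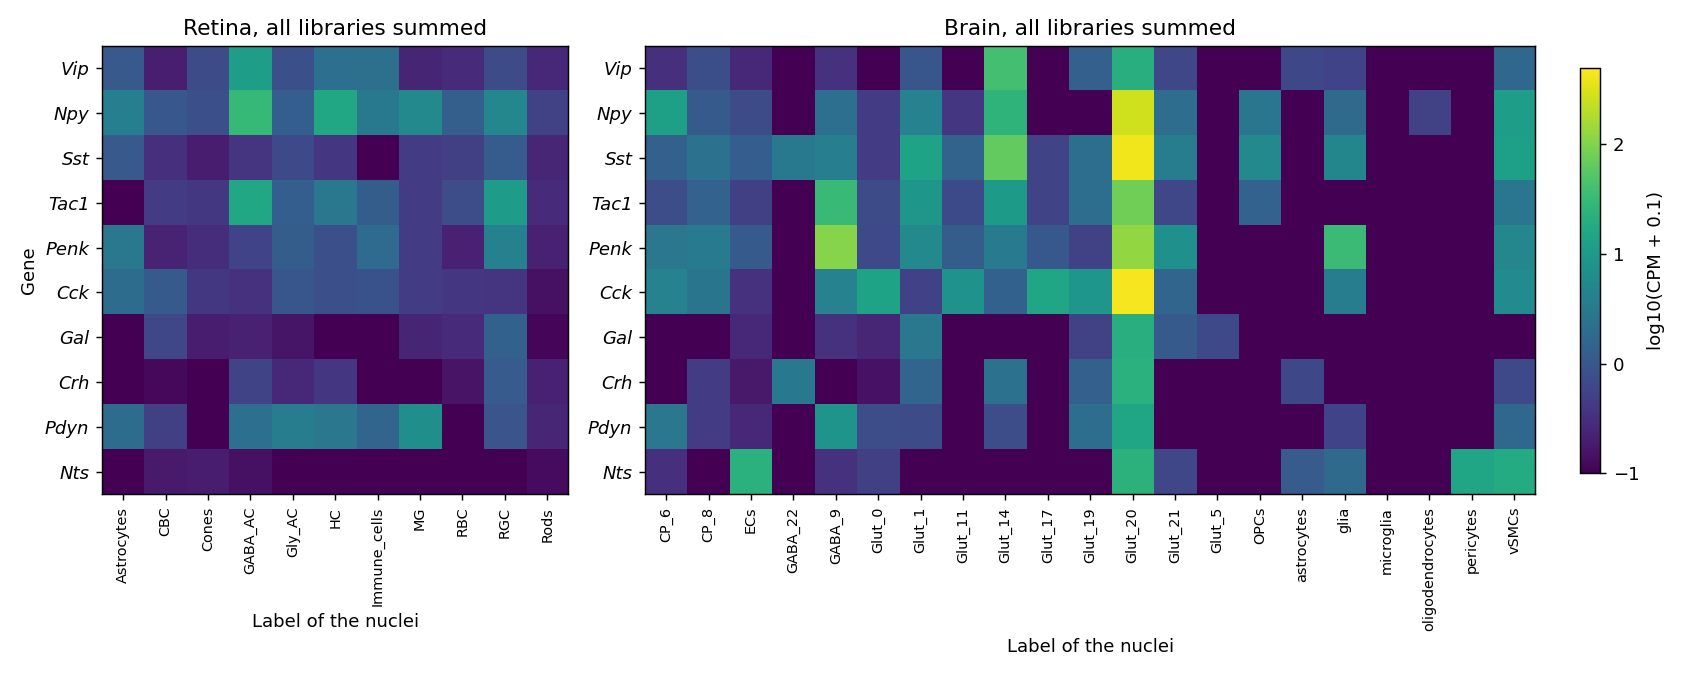
Level of each neuropeptide gene (rows) in each label (columns), as log10(CPM + 0.1) of UMIs summed over all libraries of the retina (left) or brain (right). *Vip* and *Npy* peak in GABA_AC in the retina, at 11.4 and 30.3 CPM, while in the brain the label Glut_20 is bright for most genes and ECs hold *Nts* at 22.7 CPM.

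In the retina, the genotype comparison asked whether neuropeptide transcripts in neurons differed in mice whose vessels lack *Tgfbr1*. Fits were made in GABA_AC, Gly_AC, ganglion cells and cone bipolar cells only. There, members with at least 50 UMIs were tested, which left *Vip*, *Npy*, *Tac1* and *Pdyn* in GABA_AC, *Pdyn* in Gly_AC, *Npy*, *Tac1* and *Penk* in ganglion cells, and none in cone bipolar cells. In GABA_AC nuclei *Vip* was at 11.0 CPM in the control and between 2.54 and 23.6 CPM (median 11.6) in 10 CKO libraries. *Npy* was at 26.5 CPM against 13.97 to 43.2 CPM (median 23.9), and *Tac1* at 14.2 CPM against 11.7 to 26.0 CPM (median 15.5). The control lay inside the CKO range for all of these genes. *Vip* was lowest in CKO replicates 7 and 6 (6.38 CPM) and highest in replicates 10 and 8 (20.3 CPM), and *Npy* was highest in replicates 5 and 1 (40.7 CPM).

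*Pdyn* was lower in the control than in most CKO libraries in both amacrine labels. In Gly_AC it was at 1.13 CPM (4 UMIs) in the control and between 0 and 5.78 CPM (median 3.79) in the CKO libraries, 9 of 10 of them above the control. The exception, CKO replicate 2, had 0 of 1522239 UMIs, which allows up to 1.97 CPM and so does not place it below the control. In GABA_AC the control was at 1.44 CPM and the CKO libraries between 0.407 and 4.26 CPM (median 2.36), 8 of 10 above the control. In horizontal cells, where no fit was made, *Npy* was at 29.4 CPM (22 UMIs) in the control and between 5.82 and 37.5 CPM (median 11.98) in the CKO libraries, 1 of 10 of them above the control. *Npy* and *Pdyn* in Müller glia, with 78 and 100 UMIs, were not tested either.

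In ganglion cells *Penk* was at 0.824 CPM in the control, from 2 UMIs with an interval of 0.0998 to 2.98 CPM, and between 0 and 7.22 CPM (median 5.42) in 11 CKO libraries. Of these, 10 were above the control, and the remaining one, CKO replicate 4, had 25 ganglion cell nuclei and no *Penk* UMI. *Tac1* in the same nuclei was at 8.24 CPM against 0 to 18.3 CPM (median 10.8), and *Npy* at 2.885 CPM against 0 to 20.95 CPM (median 3.10). For *Tac1* and *Npy* the control was inside the range of the other CKO libraries too. For *Penk* it was not, since the 36147 UMIs of CKO replicate 4 cannot show a level as low as the control's, and the next lowest CKO library was at 1.77 CPM.

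**Figure D2:**
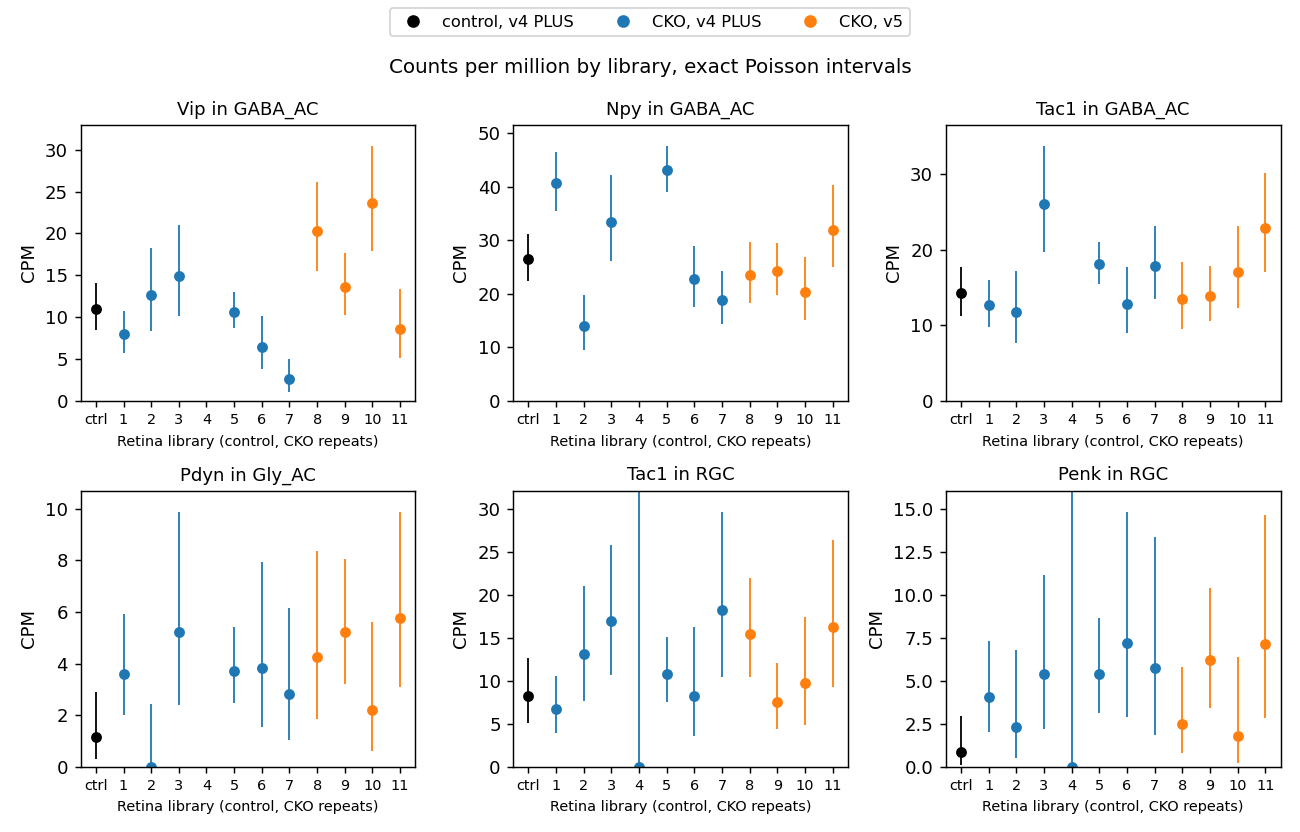
CPM of 6 gene and label pairs in each retina library (control in black, CKO v4 PLUS in blue, CKO v5 in orange) with exact Poisson 95% intervals; libraries with under 20 nuclei of the label are left out, and the interval of CKO replicate 4 in ganglion cells runs off the axis. The control point lies among the CKO points in 4 panels, while for *Penk* in RGC (0.824 CPM) and *Pdyn* in Gly_AC (1.13 CPM) only a CKO library with 0 UMIs is below it.

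None of these differences passed the test. UMIs summed per library were compared with edgeR's quasi-likelihood test, kit as a covariate and Benjamini-Hochberg adjustment over all genes, with the single control assumed to vary like the CKO libraries. In GABA_AC 0 of 4 members and 1 of all 15671 genes passed (0.00638%), with 201 genes at an unadjusted p under 0.05 and 168 called by DESeq2. In Gly_AC 0 of 1 member and 1 of 14779 genes passed (0.00677%), with 552 at an unadjusted p under 0.05 and 176 called by DESeq2. In ganglion cells 0 of 3 members and 0 of 13903 genes passed (0%), with 187 at an unadjusted p under 0.05 and 68 called by DESeq2. In cone bipolar cells no member was tested and 0 of 15235 genes passed (0%), with 475 at an unadjusted p under 0.05 and 193 called by DESeq2. No member was called by DESeq2 in any of these labels.

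The single genes that passed, named after their values were seen, lie outside the neuropeptide group. They were the predicted gene *Gm17167*, lower in CKO GABA_AC nuclei (log2 fold change -2.05, SE 0.20, adjusted p = 0.00728, below the control in 10 of 10 CKO libraries), and the protease gene *Adamts19*, higher in CKO Gly_AC nuclei (log2 fold change 4.01, SE 0.29, adjusted p = 2.35e-04, above the control in 10 of 10). With v4 PLUS libraries only, no gene passed in GABA_AC.

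The fitted log2 fold changes of the members, CKO over control, came with wide errors. In GABA_AC they were -0.30 for *Vip* (SE 0.65), 0.12 for *Npy* (SE 0.49), 0.19 for *Tac1* (SE 0.41) and 0.68 for *Pdyn* (SE 0.85). The signs of *Vip* and *Npy* were not stable, with 0.02 and -0.03 when the kit was not in the fit. *Pdyn* in Gly_AC had 1.49 (SE 0.97, unadjusted p = 0.149, adjusted p = 1). The largest was *Penk* in ganglion cells at 2.43 (SE 0.89), with an unadjusted p of 0.016 in edgeR that did not survive adjustment (adjusted p = 1) and 0.0599 in DESeq2. At this depth and with 1 control library, the errors limit what this comparison can detect. *Npy* and *Tac1* in ganglion cells had 0.21 (SE 1.20) and 0.48 (SE 0.56).

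Over all tested genes, the control lay outside the CKO range for 9.33% in GABA_AC, 13.7% in Gly_AC, 5.40% in ganglion cells and 11.7% in cone bipolar cells. For the members this was the case in 0 of 8 tested pairs, but in 2 of these, *Penk* in ganglion cells and *Pdyn* in Gly_AC, only a library with 0 UMIs was below the control.

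The kits were compared among CKO libraries of GABA_AC nuclei, to see how far the members vary within 1 genotype. *Vip* was between 2.54 and 14.9 CPM (median 9.29) in 6 v4 PLUS libraries and between 8.54 and 23.6 CPM in 4 v5 libraries, with overlap between the kits. Its log2 difference, v5 over v4 PLUS, was 0.68 (SE 0.41, adjusted p = 0.361 in edgeR), higher than the v4 PLUS median in 3 of 4 v5 libraries. *Npy* (-0.41), *Tac1* (-0.16) and *Pdyn* (-0.36) did not pass either. So 0 of 4 members passed, against 934 of 15301 genes (6.10%), of which 316 were higher and 618 lower with v5, with 3417 genes at an unadjusted p under 0.05 and 1602 called by DESeq2.

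The *Vip* difference was larger in 1 batch. Within the batch that holds both kits, where CKO replicates 6 and 7 are the v4 PLUS libraries and replicates 8 to 11 the v5 libraries, it was higher with v5 by a log2 difference of 1.71 (adjusted p = 0.0207 in edgeR, 4 of 4 v5 libraries above both v4 PLUS libraries), in a fit that called 12.5% of 13217 genes. In CKO replicate 11, 16 of the 19 *Vip* UMIs were in 1 nucleus, so its place rests on that nucleus. Over the fits of this difference the adjusted p for *Vip* was between 0.0207 and 0.416.

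The genes around the members in their pathway were also compared. Of 17 genes for peptide processing and dense core vesicles, 17 were tested in GABA_AC and ganglion cells and 15 in Gly_AC and cone bipolar cells. Between genotypes 0 passed in each of these labels, and median log2 fold changes were between -0.06 and 0.03, against medians of all genes from 0.00 to 0.02. Of 30 receptor genes of the members, 8 to 11 were tested per label, and of 31 other neuropeptide precursors 4 to 7, again with 0 passing. The receptor medians, as log2 fold changes, were 0.04 in GABA_AC, -0.13 in Gly_AC, 0.05 in ganglion cells and -0.07 in cone bipolar cells. Those of the precursors were -0.20, -0.45, -0.14 and -0.37 in the same order. Of 11 transcription factor and effector genes that neuronal activity induces, 6 to 8 were tested and 0 passed. Their median log2 fold change was 0.40 in GABA_AC, 0.31 in Gly_AC, 0.04 in ganglion cells and 0.81 in cone bipolar cells.

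Between kits, 2 of the 17 processing genes passed in GABA_AC, beside 6.10% of all genes. *Chgb*, a granin of the vesicle core, was higher with v5 (log2 difference 0.76, adjusted p = 0.0201), and *Cadps*, which primes dense core vesicles for release, was lower (-0.34, adjusted p = 0.0276).

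Within GABA_AC, nuclei were compared for pairs of members. Of 151 nuclei with *Vip*, 9 (5.96%) had *Npy* and 2 (1.32%) had *Tac1*, against 11.1% and 5.69% of nuclei without *Vip*. *Npy* and *Tac1* met more often than that, with *Tac1* in 9.62% of nuclei with *Npy* (7.62 to 11.9) and 5.10% of nuclei without (4.57 to 5.68). Nuclei with *Npy* were deeper, with medians of 7320 and 4396 UMIs, and after thinning the shares were 3.73% of 161 nuclei and 1.58% of 5954. *Pdyn* and *Penk* did not meet in Gly_AC. *Penk* was found in 0 of 93 nuclei with *Pdyn*, which allows a share of up to 3.23%, and in 0.564% of the remainder.

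The genes of the GABA enzymes were compared in the same nuclei. *Gad1* was present in 73.1% of *Npy* nuclei and 53.7% of those without, while *Gad2* was present in 26.9% and 40.2%. After thinning *Gad2* was in 7.60% and 13.3%, and *Gad1* in 19.5% and 20.2%. *Vip* nuclei had *Gad2* in 60.9% against 38.2%, or 11.5% against 13.4% after thinning. Of these differences, that of *Gad2* in *Npy* nuclei had the same direction after thinning and that of *Gad1* was near 0. That of *Gad2* in *Vip* nuclei had the other sign. It rests on few *Vip* nuclei, 0.654% of 6115 in the thinning above, so its direction after thinning is not settled.

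The genes most like a member were taken as the 3 with the largest ratio of CPM in nuclei with at least 2 UMIs of the member over nuclei with 0, among genes with at least 30 UMIs in the former, in v4 PLUS CKO libraries. For *Vip*, over 48 nuclei, they were *Iqcj* (44.5-fold), *Irag2* (43.9-fold) and *Cbln4* (38.4-fold), the last a secreted organizer of synapses. *Cbln4* had a ratio of 81.1 in the control and 77.2 in the v5 libraries. *Iqcj* and *Irag2* had ratios of 35.4 and 25.9 in the control but 0 UMIs in any v5 library, where the symbols *Iqschfp* and *Lrmp* held 1556 and 267 UMIs. Symbols differ between batches more widely. Of 19505 with at least 100 UMIs, 617, 619 and 301 were at 0 in batches 1, 2 and 3, and all members but *Nts* had UMIs in each.

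For *Tac1*, over 92 nuclei, *D130079A08Rik* led with a ratio of 8.99 that came from 3 nuclei and was 0 in the control. *Nox4* followed with 5.86, and 5.21 and 4.29 in the control and v5 libraries, and *St8sia6* with 4.64, and 14.5 and 6.06. For *Npy*, over 181 nuclei, *Gm29260* was at 6.25, and at 4.77 and 3.51 in the control and v5 libraries, there from 2 and 4 nuclei. *Gm13499* (5.83) had 0 UMIs in the control's *Npy* nuclei but a ratio of 10.8 in the v5 libraries, from 10 UMIs in 3 nuclei. *Racgap1* (4.99) had ratios of 0.527 and 0.968 in the control and v5 libraries.

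In the brain, *Penk* and *Tac1* were strongest, Glut_20 aside, in the nuclei labelled GABA_9, in which *Foxp1*, *Drd1*, *Drd2* and *Adora2a* of the striatal list were at 2504, 41.7, 216 and 45.2 CPM. *Penk* was at 108 CPM (98.2 to 118) in GABA_9, which held 458 of its 771 UMIs, and *Tac1* was at 30.6 CPM (25.6 to 36.4). *Pdyn* was at 8.25 CPM (5.74 to 11.5) from 35 UMIs. A *Penk* UMI was present in 21.3% of 1276 nuclei at a median depth of 2136 UMIs, against 0 of 1243 oligodendrocytes at 1314 UMIs, which allows a share of up to 0.241%. Thinned to 1000 UMIs, the share was 11.3% of 956 nuclei.

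*Penk* and *Tac1* divided these nuclei along the dopamine receptors, which are known to mark the indirect (*Drd2*, *Adora2a*) and direct (*Drd1*) striatal pathways. *Drd2* was present in 67.6% of 272 *Penk* nuclei (61.7 to 73.2) and 18.8% of nuclei without *Penk* (16.4 to 21.4), and *Adora2a* in 31.6% and 5.28%. *Drd1* went the other way, at 2.94% and 14.1%. Among 113 *Tac1* nuclei, *Drd1* was present in 27.4% (19.5 to 36.6) against 10.2%, and *Drd2* in 6.19% against 31.5%. *Pdyn* was found with *Tac1*, which was present in 7 of 31 *Pdyn* nuclei (22.6%, 9.59 to 41.1) and 8.51% of the remainder.

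At equal depth the shares of *Drd1* and *Drd2* kept their direction in *Penk* and in *Tac1* nuclei. *Penk* nuclei were deeper, at medians of 3548 and 1878 UMIs, and after thinning *Drd2* was present in 44.1% of 102 and 13.7% of 854 nuclei, and *Drd1* in 1 of 109 and 4.37% of 847. In *Tac1* nuclei *Drd1* was in 14.8% of 27 against 3.77%, and *Drd2* in 7.14% of 28 against 19.4%. By the rule for genes most like a member, applied to all brain labels named GABA, *Adora2a* was number 3 for *Penk* with a ratio of 5.45 in the control library, in 33 of 74 nuclei, and of 1.42 from 4 UMIs in the CKO library. *Bnc2* (11.5) and *Hbb-bs* (10.9) stood before it but came from 4 and 3 nuclei.

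The interneuron genes *Vip*, *Sst* and *Npy* were strongest, again aside from Glut_20, in the nuclei labelled Glut_14. *Sst* was at 63.8 CPM (55.2 to 73.4), *Vip* at 39.7 CPM (33.0 to 47.4) and *Npy* at 25.7 CPM (20.4 to 32.1). *Vip* UMIs were in 6.33%, *Sst* UMIs in 11.8% and *Npy* UMIs in 5.57% of 916 nuclei at a median depth of 2530 UMIs, against 0%, 0% and 0.0804% of oligodendrocytes. After thinning these were 4.25%, 6.31% and 2.74% of 729 nuclei.

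*Vip* and *Sst* nuclei of Glut_14 differed in genes known to mark interneurons of different embryonic origin. Of 58 *Vip* nuclei 96.6% had *Adarb2* (88.1 to 99.6) and 58.6% had *Prox1* (44.9 to 71.4), against 44.99% and 8.62% of nuclei without *Vip*, and after thinning *Adarb2* was in 96.3% against 36.5%. *Lhx6*, a factor of the medial ganglionic eminence, was in 0 of 58, which allows up to 5.17%, against 14.8%. Of 108 *Sst* nuclei 22.2% had *Lhx6* (14.8 to 31.2) and 76.9% had *Reln* (67.8 to 84.4), against 12.7% and 51.1%, while *Adarb2* was present in 26.9% against 51.1%. *Npy* was found with *Sst* in 15 nuclei, 29.4% of *Npy* nuclei and 13.9% of *Sst* nuclei. *Sst* and *Vip* shared 2 nuclei. After thinning, the shares of *Prox1* in *Vip* nuclei and of *Reln* in *Sst* nuclei lay outside the intervals given for them. Apart from *Adarb2* in *Vip* nuclei, the shares in this paragraph are unthinned and can also differ with depth.

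**Figure D3:**
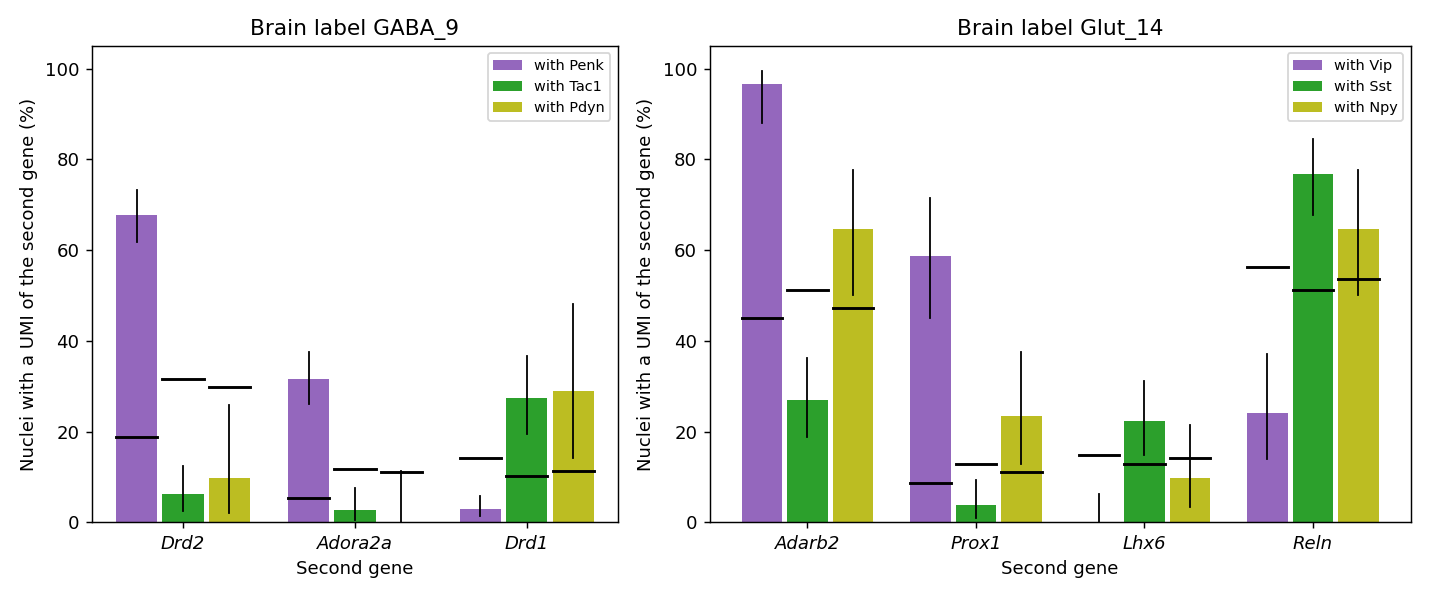
Share of nuclei with a UMI of a second gene among nuclei with a UMI of *Penk*, *Tac1* or *Pdyn* in the brain label GABA_9 (left) and of *Vip*, *Sst* or *Npy* in Glut_14 (right); bars are unthinned shares in percent with exact binomial 95% intervals, and horizontal lines give the share among nuclei without the gene. *Drd2* is in 67.6% of *Penk* nuclei and 6.19% of *Tac1* nuclei, and *Adarb2* in 96.6% of *Vip* nuclei.

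*Cck* was found in several labels with a vesicular glutamate transporter gene, *Slc17a7* in Glut_0, Glut_11 and Glut_17 and *Slc17a6* in Glut_19. It was at 14.01 CPM (12.4 to 15.8) in Glut_0, where *Slc17a7* was at 128 CPM, and at 14.9 CPM (10.2 to 21.1) in Glut_17, with lower values of 8.77 CPM in Glut_19 and 7.73 CPM in Glut_11. In Glut_0, 5.08% of 5214 nuclei had a *Cck* UMI, against 0% of oligodendrocytes, or 1.397% after thinning, and only 13 nuclei held 2 or more. *Gal* and *Crh* had few UMIs, with 33 of the 58 *Gal* UMIs in Glut_1, 18 of them in 1 control nucleus, and 17 of the 49 *Crh* UMIs in Glut_1.

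*Nts* was mostly in ECs. They held 287 of its 357 brain UMIs (80.4%) at 22.7 CPM (20.1 to 25.5), and vascular smooth muscle cells (vSMCs) had 18.8 CPM (13.04 to 26.3). It was present in 224 of 5419 EC nuclei, 4.13% (3.62 to 4.70) at a median depth of 1429 UMIs, against 0 of 1243 oligodendrocytes, and in 2.14% of ECs after thinning. Of these 224 nuclei, 97.8% had *Cldn5* and 99.1% had *Flt1*, both EC genes, against 87.4% and 95.1% of the remaining ECs. *Nts* nuclei were deeper, with medians of 3878 and 1370 UMIs, and after thinning *Cldn5* was in 81.8% and 84.5%. *Penk* was at 33.6 CPM (26.4 to 42.1) in the label glia, where 0 of 63 *Penk* nuclei had *Gad2*. *Npy* was at 12.4 CPM (9.44 to 16.1) in CP_6, where the choroid plexus and ependyma list was at 4314 CPM, against 40664 CPM in CP_8. *Npy*, *Sst* and *Cck* were at 11.6, 12.2 and 6.09 CPM in vSMCs, from 21, 22 and 11 UMIs. The vSMC label also held EC and other transcripts, with *Cldn5* at 1095 CPM and *Ttr* at 4053 CPM.

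Glut_20 had the highest CPM of 9 members, all but *Vip*. *Cck* was at 451 CPM (403 to 504), *Sst* at 420 CPM (373 to 471), *Npy* at 267 CPM (230 to 308) and *Penk* at 126 CPM (101 to 155), the last overlapping GABA_9. Its first place was also not apart from the next label for *Nts*, *Pdyn* and *Crh*. Its nuclei carried several members at once. *Cck* was in 52.6% of *Sst* nuclei and *Npy* in 36.3%, against 36.2% and 21.04% of nuclei without *Sst*, which were shallower, with medians of 1280 and 671 UMIs. After thinning the *Cck* shares were 45.7% and 30.0%. Without Glut_20, the level of *Cck* over all nuclei of the control library was 4.24 CPM in place of 9.36 CPM, that of *Sst* 6.47 in place of 10.9 CPM and that of *Npy* 3.73 in place of 7.01 CPM. In the CKO library they were 7.45, 4.602 and 1.98 CPM in place of 9.38, 6.93 and 2.71 CPM.

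The brain genotypes were compared as a pair of libraries, with 1 library each and so without a test. Ratios of CPM, CKO over control, were formed for the 28 pairs of a member and a label with at least 20 UMIs, which cover 9 members and 12 labels. In 15 of the 28 pairs, 11 lower and 4 higher in the CKO library, the exact interval did not hold a ratio of 1, against 30.3% of all pairs of a gene and label with the same minimum of UMIs. Past 2-fold were 10 pairs, 5 higher and 5 lower in the CKO library, against 13.8% of those 114034 pairs of all genes in the same labels. Pairs of few UMIs pass a fold more easily, and their counting error was not removed from either number. Among all genes with that minimum, more were past 2-fold lower than higher in each of the 12 labels except ECs. In Glut_1 1411 were lower and 270 higher, in Glut_0 1234 and 382, and in ECs 761 and 1470. The directions of the intervals were not counted over all genes. Nuclei of the CKO library were shallower in most neuron labels, with medians of 2314 against 5004 UMIs in Glut_0 and 1408 against 3495 in GABA_9.

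*Cck* was higher in the CKO library in each neuron label with *Slc17a7* or *Slc17a6* in which it could be compared, other than Glut_20. In Glut_0 it was at 11.6 CPM (9.74 to 13.8) in the control and 17.4 CPM (14.7 to 20.5) in the CKO library, a ratio of 1.496 (1.17 to 1.91). The ratios were 2.67 (1.16 to 6.36) in Glut_11, 2.05 (0.952 to 4.59) in Glut_17 and 3.47 (1.27 to 10.9) in Glut_19, the last from 6 and 15 UMIs. In CP_6, outside the neuron labels, the ratio was 2.415 (0.902 to 6.46), and in Glut_20 *Cck* was lower, at 0.703 (0.523 to 0.932). Among nuclei with at least 1000 UMIs the ratio in Glut_0 was 1.53. In Glut_0 the summed markers of other classes were not level either, with the cerebellar granule list at 169 CPM in the control and 96.5 CPM in the CKO library. Other list ratios there were 0.131 for oligodendrocytes, 0.509 for GABA neurons, 0.588 for choroid plexus and 1.197 for astrocytes. The ratio of the cerebellar granule list was 0.329 in Glut_11, 0.423 in Glut_17 and 0.2702 in Glut_19. That of astrocytes was 2.02 in Glut_11 and that of interneurons 0.502 in Glut_17. In Glut_20 the ratios were 0.358 for interneurons, 1.451 for astrocytes, 1.786 for pericytes and 4.441 for vSMCs, the last from 10 and 15 UMIs. The part of these lists in the result was not tested.

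The interneuron genes were compared in Glut_14. *Vip* was at 47.8 CPM (38.3 to 58.9) in the control and 28.0 CPM (19.5 to 38.9) in the CKO library, a ratio of 0.586 (0.384 to 0.877), and *Sst* was at 74.7 and 48.0 CPM, a ratio of 0.643 (0.466 to 0.877). *Npy* had 0.635 (0.376 to 1.04). A single control nucleus held 21 *Sst* UMIs, and without it the ratio was 0.757 (0.545 to 1.04), so the interval no longer left out 1. Without the nucleus of most *Vip* UMIs that ratio was 0.661 (0.430 to 0.997). In the same nuclei the interneuron list was at 7593 CPM in the control and 8270 CPM in the CKO library, a ratio of 1.089. The GABA neuron and neuron lists had ratios of 0.980 and 1.031. The cerebellar granule list was at 196 and 77.6 CPM and the astrocyte list at 58.8 and 36.0 CPM. The part of these lists in the result was not tested.

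In Glut_1 *Npy* was at 6.21 CPM in the control and 1.13 CPM in the CKO library, from 43 and 5 UMIs, a ratio of 0.182 (0.0563 to 0.459). *Penk* had 0.338 (0.159 to 0.657) and *Sst* 0.643 (0.446 to 0.915), while *Tac1* had 0.945 (0.615 to 1.44). The ratio of *Gal*, 0.216, rested on 1 nucleus and was 0.569 (0.132 to 1.92) without it. The cerebellar granule list in the same nuclei was at 86.3 CPM in the control and 20.6 CPM in the CKO library. List ratios were 0.714 for striatal neurons, 0.582 for choroid plexus and 0.0423 for ECs, the last from 37 and 1 UMIs, and 1.159 for interneurons. Whether the libraries hold different mixtures of nuclei under this label was not tested.

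Striatal *Penk* in GABA_9 was at 117 CPM (104 to 130) in the control and 92.0 CPM (77.2 to 109) in the CKO library, a ratio of 0.790 (0.642 to 0.967). Without the control nucleus that held 12 *Penk* UMIs it was 0.818 (0.664 to 1.003). *Tac1*, at 1.16 (0.795 to 1.67), and *Pdyn*, at 0.848 (0.375 to 1.80), had intervals that held 1. Among nuclei with at least 1000 UMIs the *Tac1* ratio turned to 0.872 (0.557 to 1.34). The striatal list was at 4130 and 4210 CPM. Lists of other cells moved from low levels, ECs from 10.2 to 4.70 CPM, oligodendrocytes from 25.4 to 11.4 CPM, OPCs from 88.9 to 40.95 CPM and astrocytes from 48.6 to 67.8 CPM, and their part in the result was not tested. In the label glia *Penk* was higher in the CKO library, at 68.1 CPM against 23.7 CPM, a ratio of 2.88 (1.77 to 4.65), with 41 and 34 UMIs, and 2.20 among nuclei with at least 1000 UMIs. The fibroblast list, highest in that label, had a ratio of 1.137. Other lists moved, with ratios of 2.42 for oligodendrocytes and 1.31 for the striatal list, whose most abundant gene there was *Foxp1* in both libraries. Those of GABA neurons, astrocytes, OPCs and ECs were 0.580, 0.539, 0.482 and 0.598. The part of these lists in the result was not tested.

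*Nts* in ECs, the cells in which *Tgfbr1* is deleted, was at 28.8 CPM (24.6 to 33.5) in the control and 17.5 CPM (14.5 to 20.9) in the CKO library. The ratio was 0.608 (0.477 to 0.774), and 0.618 among nuclei with at least 1000 UMIs. The medians of 1347 and 1491 UMIs per nucleus were close. The EC list was at 7766 and 6144 CPM, a ratio of 0.791, the fibroblast list at 0.633 and the choroid plexus list at 0.426. Ratios over 1 were those of astrocytes (1.247), GABA neurons (1.193) and the striatal list (1.153). Over all genes with at least 20 UMIs in ECs the median ratio was 1.099. The part of these lists in the result was not tested. In vSMCs *Nts* had 34 UMIs in the control (22.0 CPM) and 0 of 258349 in the CKO library, and the exact interval of the ratio runs from 0 to 0.686. In that label the choroid plexus list had a ratio of 0.459, neurons 0.572 and fibroblasts 2.63, and their part in the result was not tested.

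**Figure D4:**
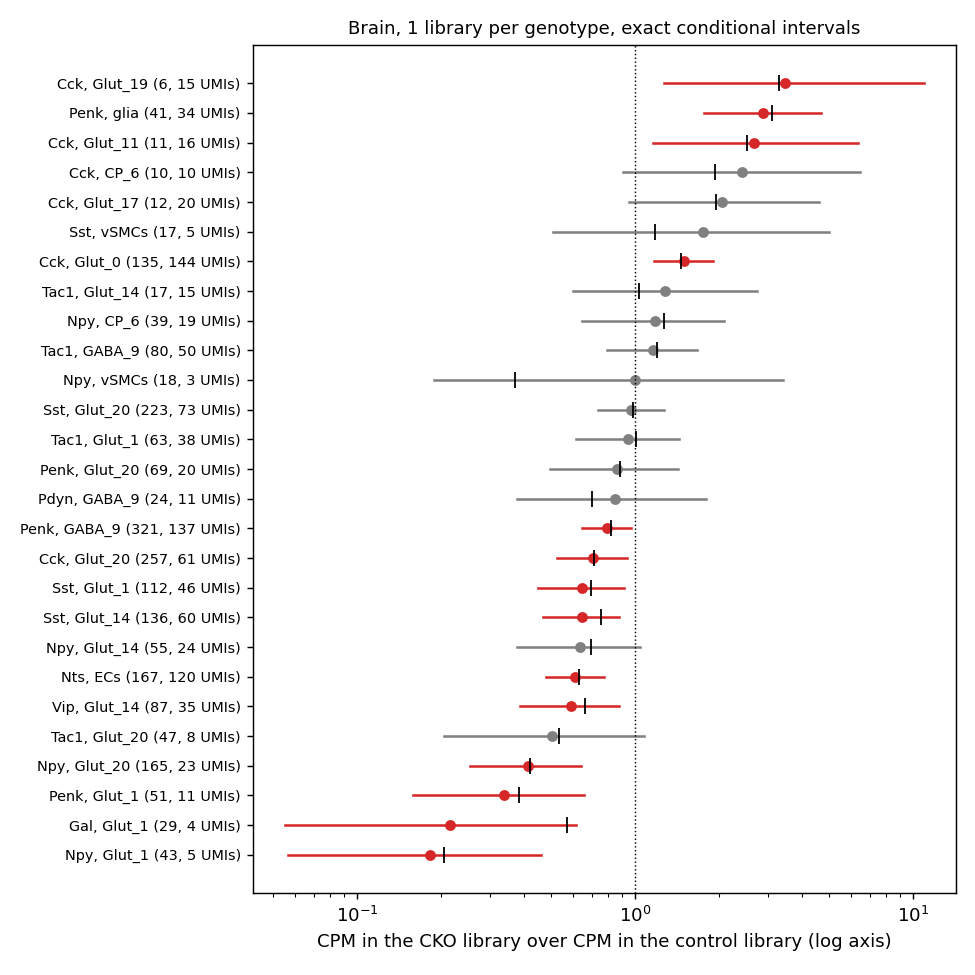
Ratio of CPM in the CKO library over the control library for each gene and label with at least 20 UMIs, on a log axis, with exact conditional 95% intervals (red where the interval leaves out 1) and the ratio without the nucleus of most UMIs (black ticks); *Nts* in vSMCs, with 0 UMIs in the CKO library, cannot be drawn. *Cck* is at 1.496 in Glut_0, *Nts* at 0.608 in ECs and *Vip* at 0.586 in Glut_14.

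Neuropeptide promoters are known for the cAMP response element, which was first studied at *Sst*, so the RefSeq promoters (250 bases before to 50 after the start that table uses, which for *Sst* lies inside the gene's full extent, build GRCm38.p6) were searched on both strands for the full element TGACGTCA, which reads the same on both, and for its parts TGACG and CGTCA. Promoters were matched for 8 members, and *Penk* and *Crh* are named only. The full element was in 1 of their 9 promoters, that of *Sst*, against 1.79% of 32851 promoters. TGACG or CGTCA was in 6 of the 9 promoters of these members, *Sst* included, against 20.8% of all promoters. The excerpts show the match in capitals for *Sst* (chr16:23890874-23890903, minus strand), *Vip* (chr10:5639128-5639154, plus strand), *Cck* (chr9:121495726-121495752, minus strand) and *Nts* (chr10:102490569-102490595, minus strand), 4 of the members with a match, whose brain levels are described above, each 5′ to 3′.
Sst: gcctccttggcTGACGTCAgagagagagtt
Vip: gatcactactgTGACGtctttcgggga
Cck: ctgctggactgCGTCAgcactgggtaa
Nts: ttagggaagatCGTCActttccatcaa
*Npy* and *Pdyn* had no match in this window, which says only that these letters are not in it.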

How the data were processed

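The authors deposited UMI counts per gene and nucleus after filtering, with a cell type label for each nucleus. Their methods name PIPseeker, CellBender, SOLO, Seurat and the genome GRCm39. The labels also list Seurat, but give the genome as mm10. They also removed mixed nuclei by hand, and clusters holding multiple nuclei from CKO replicates 4 and 5. No count was changed here. The neuropeptide genes and the pathway lists were chosen with earlier results of these data known. Counts were summed by label and library, with at least 20 nuclei of a label in a library and at least 50 UMIs of a gene in a fit. Fits used edgeR 4.0.16 with TMM factors, or DESeq2 1.42.0 as the alternative, in R 4.3.3, with adjusted p under 0.05 as the threshold. Intervals are exact Poisson for CPM, exact binomial for shares and conditional binomial for ratios. Thinning drew 1000 UMIs from each nucleus without replacement. It was drawn anew for each pair of genes, so the number of nuclei with a gene differs slightly between pairs. The genes most like a member were named by the rule given with them. Scripts ran in Python 3.11.15, using pandas 2.3.3 for tables, matplotlib 3.10.9 for figures, scipy 1.17.1 for intervals and numpy 2.4.6.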

Additional observations from a re-analysis of the deposited data

Results flagged for a closer look

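Among 18 groups of a gene and a label tested for a CKO library standing apart, 5 had one, each on the high side. The cutoff flags about 1 in 20 groups by chance only where values follow a normal distribution. Levels from few UMIs, which cannot be negative, need not do so. That rate therefore cannot tell whether 5 flags are more than chance gives. *Cck* in Gly_AC was at 5.21 CPM in CKO replicate 3 (9 UMIs), with the next library at 1.43 CPM. *Vip* in Gly_AC was at 2.895 CPM in the same library (5 UMIs), with the next at 1.31 CPM. *Npy* in Gly_AC was at 3.285 CPM in CKO replicate 10 (6 UMIs), and the next library was at 1.74 CPM. *Npy* in Müller glia was at 14.16 CPM in CKO replicate 5 (44 UMIs) and next at 5.98 CPM. *Npy* in rod bipolar cells was at 5.11 CPM in CKO replicate 8 (7 UMIs), with 2.39 CPM next. The reasons were not tested.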

How the results depend on the processing

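Of 227 alternatives, 200 gave the same result, 21 moved, 1 was stronger and 5 reversed. Of the 39 that concern main results, 25 were the same and 14 moved. For fold changes of members the same result, in 56 of 62, means the same sign and the same side of the threshold. For brain ratios it means a ratio inside the first interval. That held in 84 of 84, which share most of their UMIs with the first ratio. Among nuclei with at least 1000 UMIs *Tac1* in GABA_9 still crossed 1, from 1.16 to 0.872, as did *Penk* in Glut_20, from 0.858 to 1.07, and *Npy* in vSMCs, from 0.998 to 1.06, while the intervals of *Npy* in Glut_14 (0.599, 0.348 to 0.9986), *Cck* in Glut_17 (2.16, 1.005 to 4.84) and *Cck* in CP_6 (2.93, 1.07 to 8.15) came to leave out 1. Without the nucleus of most UMIs *Tac1* in Glut_1 crossed 1, and the intervals of *Gal* in Glut_1, *Sst* in Glut_14 and *Penk* in GABA_9 came to hold 1. The count of genes passing in GABA_AC was 0 with v4 PLUS libraries only, 2 within the batch of the control and 168 with DESeq2, against 1. In Gly_AC it was 3 without the covariate, 7 within the batch, 2 with genes of at least 1 UMI and 176 with DESeq2, against 1. In ganglion cells it was 3 within the batch and 68 with DESeq2, and in cone bipolar cells 193 with DESeq2, against 0 in each. Between kits it was 1602 with DESeq2, 604 with genes of at least 1 UMI and 1649 within the batch that holds both kits, against 934.

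The reversed values are small. *Vip* in GABA_AC had a log2 fold change of 0.01889 without the covariate and 0.02266 within the control's batch, against -0.30. *Npy* in GABA_AC had -0.03068 without the covariate and -0.03136 without CKO replicates 4 and 5, against 0.12. The kit difference of *Npy* was 0.07651 within the batch that holds both kits, against -0.41, and that of *Vip* was stronger there at 1.71. *Drd2* in *Penk* nuclei was at 44.12% after thinning, against 67.65%. Added after the data were seen were levels without CKO replicate 5, brain levels without Glut_20 and brain ratios without the nucleus of most UMIs. No paired analysis was possible because no retina library of 1 genotype has a stated partner of the other.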

Other observations

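*Nts* had 80.4% of its brain UMIs in ECs, the cell type of the deletion, and a CPM ratio of 0.608 there between 1 CKO and 1 control library. Its CPM in ECs was not apart from that in vSMCs or Glut_20. *Vip* nuclei of the retina had *Cbln4* at high ratios in the control and with both kits, and *Penk* and *Tac1* nuclei of the brain differed in *Drd2* and *Drd1*.

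The retina has 1 control library, and the brain 1 library of each genotype, so brain ratios compare libraries, not genotypes. Kit and batch overlap in part. Brain nuclei came with vascular fragments, several labels go against their markers, and Glut_20 carries a large share of the brain's *Cck*, *Sst* and *Npy* UMIs. Counts of *Sst*, *Cck*, *Gal*, *Crh* and *Nts* in the 4 retinal labels with a fit are under the 50 UMIs set here as the minimum. Peptides were not measured. Precursor protein sequences were not used here.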
